A study of Mus musculus with 12 samples.

Results

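The genes described here encode the subunits of the transcription factor NF-κB and the proteins of the IκB family that bind them. Of 10 such genes, 9 had probe sets that the platform's annotation assigns to a single gene, out of 18193 genes in all, and each gene stands for its brightest probe set, by the mean of all 12 arrays. They are Rel, Rela, Relb, Nfkb2, Nfkbia, Nfkbib, Nfkbie, Nfkbiz and Bcl3. Nfkb1 was not analysed here. The arrays fall into 4 groups of 3: c-kit+ cells from cultures with 17β-estradiol, c-kit+ cells from control cultures without it, CD44+ cells from cultures with 17β-estradiol, and CD44+ cells from control cultures. All came from primary whole bone marrow cultures of female C57BL/6 mice aged 6 weeks, and the treated cultures received 1 nM estradiol, the main circulating estrogen, for 1 week. In the submitters' words the c-kit+ cells are stem cells and the CD44+ cells stromal cells. No label states that the 3 replicates of a group came from separate cultures or animals, and the p-values then rest on a spread between samples that may be technical.

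NF-κB is a dimer of Rel family proteins. In resting cells the classical inhibitors IκBα (Nfkbia), IκBβ (Nfkbib) and IκBε (Nfkbie) hold it in the cytoplasm. When receptors for cytokines or microbial products signal, the IκB kinase marks these inhibitors for destruction, and the released dimers enter the nucleus and switch on inflammatory genes. Several of those target genes encode the inhibitors and subunits themselves, which is a feedback well known in macrophages. RelB and the p52 protein made from Nfkb2 form the dimer of the slower, alternative arm of the pathway, and the nuclear IκB proteins Bcl-3 and IκBζ (Nfkbiz) bind p50 or p52 homodimers on DNA and alter which targets are transcribed.

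The fractions were first checked against their defining genes. Kit, which encodes the receptor that c-kit+ cells are selected for, read 3.92 to 3.97 (log2 expression) on c-kit+ estradiol arrays and 3.88 to 4.08 on c-kit+ control arrays. On CD44+ estradiol arrays it read 3.84 to 4.09 and on CD44+ control arrays 3.79 to 4.22. These levels lie near background, since 9 probe sets of the Y-linked genes Eif2s3y, Kdm5d and Uty, in female mice, read up to 3.98. Cd44 lay between 11.76 and 12.46 on all 12 arrays. All 6 macrophage markers (Cd14, Cd68, Csf1r, Adgre1, Mrc1 and Fcgr1) had group means of 10.03 to 14.07 in all 4 groups, and Csf1r, the receptor for M-CSF, averaged 14.07 in c-kit+ estradiol cells, 14.05 in c-kit+ control cells, 14.04 in CD44+ estradiol cells and 13.99 in CD44+ control cells. The summed level of these markers ran from 15.63 to 15.73 (log2) on c-kit+ estradiol arrays and from 15.60 to 15.65 on c-kit+ control arrays. It ran from 15.53 to 15.66 on CD44+ estradiol arrays, against 15.26 to 15.53 on CD44+ control arrays. Between the fractions in control cultures 2 of the 6 passed. Mrc1 averaged 11.71 in c-kit+ control cells and 11.06 in CD44+ control cells, and Fcgr1 10.74 and 10.03. Of the 6, Cd14, the coreceptor for bacterial lipopolysaccharide, rose with estradiol in the mean of both cell types (log2 difference 0.43, adjusted p = 0.0148), and the part of these cells in the results below was not tested. Fewer cells of a type and less RNA per cell cannot be told apart in such samples. None of the measured stem and progenitor, mast, dendritic, neutrophil, lymphoid, mesenchymal or endothelial markers passed with estradiol. Mesenchymal markers summed to 8.53 to 9.42 on c-kit+ estradiol arrays and 8.40 to 9.15 on c-kit+ control arrays, against 11.34 to 12.47 on CD44+ estradiol arrays and 10.84 to 12.26 on CD44+ control arrays. Of the 5 measured, 4 passed between the fractions in control cultures. RNA quality, read as the 3' minus the 5' control probe set of Gapdh, overlapped between estradiol and control arrays in both fractions (4.23 to 6.17 against 4.62 to 5.35 in c-kit+ cells, 3.32 to 4.31 against 2.83 to 4.14 in CD44+ cells). The same measure of Actb was 2.34 to 4.68 on c-kit+ estradiol arrays and 2.48 to 3.98 on c-kit+ control arrays. It was 1.69 to 2.14 on CD44+ estradiol arrays and 1.52 to 2.11 on CD44+ control arrays. By this measure RNA quality differed between the fractions. It cannot be told apart from the fraction where c-kit+ and CD44+ cells are compared. Among the brightest probe sets, c-kit+ control replicate 3 was low for Relb, Nfkbib and Rela, and their values without it are given below.

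Promoter sequences are shown for genes whose own promoters hold the NF-κB consensus motif, the 10-base sequence that the factor binds. Several known targets of the factor encode its own inhibitors and subunits. Whether the changes below pass through this feedback was not tested. The promoter sequences come from RefSeq (GRCm38.p6) and were available for 7 of the 9 genes. They are windows of 300 bases that run from 250 bases before to 50 after the start site. The motif was searched on both strands. At least 1 match lay in a window of 5 of these 7 genes (Rel, Nfkb2, Nfkbia, Nfkbie and Bcl3), while none lay in those of Rela and Nfkbib. Of all 27025 genes with a window, 9.55% had a match, and among all 32851 windows 8.46%. The genes were chosen as members of this pathway, so the share among them is a description, and a match is not shown to be a bound site. The last 150 bases before the start site follow for 4 of them, 5′ to 3′ on the gene's strand, with the matches in capitals.
Nfkbie: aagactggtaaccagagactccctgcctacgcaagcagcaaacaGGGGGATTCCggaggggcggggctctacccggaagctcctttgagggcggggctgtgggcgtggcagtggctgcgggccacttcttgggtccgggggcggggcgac
Rel: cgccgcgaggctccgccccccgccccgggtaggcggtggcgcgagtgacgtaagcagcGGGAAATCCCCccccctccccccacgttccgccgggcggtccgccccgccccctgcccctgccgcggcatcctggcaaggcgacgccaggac
Nfkb2: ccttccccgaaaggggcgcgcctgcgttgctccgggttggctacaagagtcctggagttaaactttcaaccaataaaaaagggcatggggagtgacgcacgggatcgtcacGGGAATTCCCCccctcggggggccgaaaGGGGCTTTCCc
Nfkbia: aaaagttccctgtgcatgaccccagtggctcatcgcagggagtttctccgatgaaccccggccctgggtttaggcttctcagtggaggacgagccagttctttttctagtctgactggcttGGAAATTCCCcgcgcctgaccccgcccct
The Nfkbie window is chr17:45555550-45555699 (plus strand), and its match begins 106 bases before the start site. The Rel window is chr11:23770970-23771119 (minus strand), where a match on each strand overlaps with a further match shifted by 1 base, the first beginning 92 bases before the start. The Nfkb2 window is chr19:46304587-46304736 (plus strand), lies within the annotated span of the gene and precedes the first of its 3 listed start sites. In it a match on each strand begins 39 bases before the start and overlaps with a further match that begins 38 bases before it. Another match begins 11 bases before the start. The Nfkbia window is chr12:55492648-55492797 (minus strand), with a match on the opposite strand that begins 29 bases before the start. In Bcl3, on chromosome 7, the match GGGAAGTCCC begins 3 bases into the transcribed sequence.

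**Figure D1:**
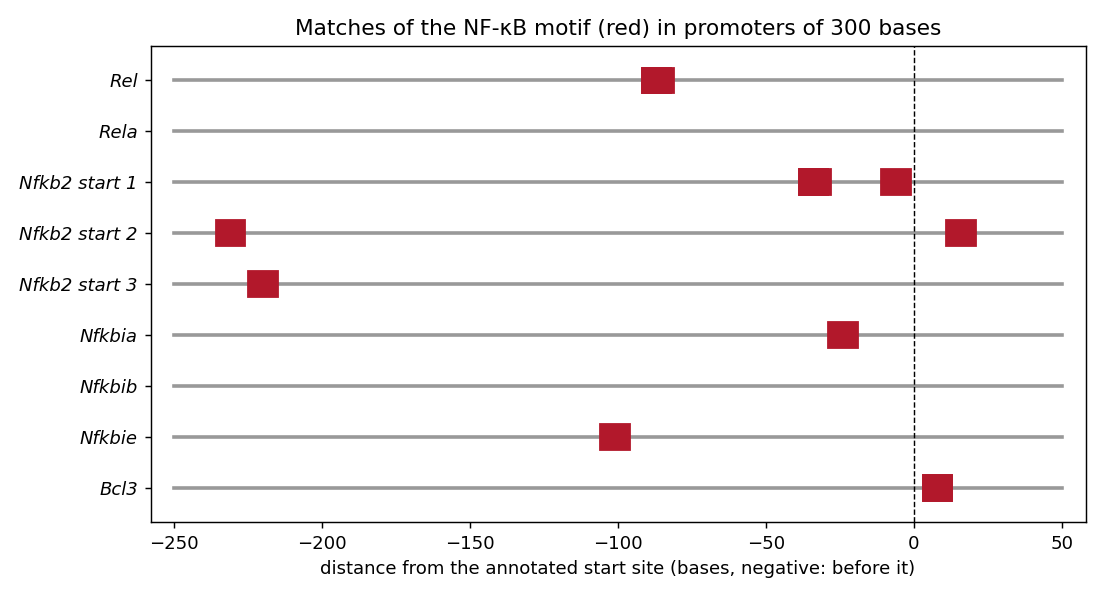
Matches of the 10-base NF-κB motif (red boxes, either strand) in the RefSeq promoter windows of 7 genes, plotted by distance from the annotated start site in bases; each grey line is a window of 300 bases, and Nfkb2 has 3 start sites. Windows of Rela and Nfkbib hold no match.

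Estradiol cultures were compared with control cultures within each fraction and in the mean of both fractions. All 9 genes had higher values on each of the 3 estradiol arrays than on any of the 3 control arrays, in c-kit+ cells and in CD44+ cells alike. Such separation upward was seen for 5.34% of all genes in c-kit+ cells, for 6.75% in CD44+ cells and for 1.49% in both. Separation downward, which none of the 9 showed, was seen for 2.47%, 5.92% and 0.319%. Of the 9 genes 8, all but Nfkbia, had an unadjusted p under 0.05 in c-kit+ cells, in CD44+ cells and in the mean of both, beside 4.47%, 5.38% and 7.16% of all genes. By limma, with p-values adjusted over all 18193 genes, 2 of the 9 (Nfkbie and Rel) rose in c-kit+ cells, where 0.181% of all genes were called in either direction and 0.176% as higher. The same 2 rose in CD44+ cells, where 0.291% were called in either direction and 0.28% as higher. In the mean of both fractions, which uses the same arrays as 6 against 6, 7 of the 9 rose and none fell, where 0.951% of all genes were called. The fit counts the arrays of both fractions as independent. Deviations from the group means correlated at 0.447, 0.192 and 0.312 between equally numbered c-kit+ and CD44+ estradiol arrays. Between the control arrays the correlations were 0.175, 0.122 and -0.208. A link between the fractions was not modelled for the mean, so its p-values may be too small. The median difference of the 9 genes was 0.57 in c-kit+ cells, 0.60 in CD44+ cells and 0.57 in the mean, beside 0.016, 0.010 and 0.015 for all genes. Without single arrays the number called in the mean of both fractions ran from 4 to 7, and Nfkbie, Rel, Nfkb2 and Bcl3 were called in all 12 of these fits. It was 4 without c-kit+ estradiol replicates 2 or 3, CD44+ estradiol replicates 2 or 3, or CD44+ control replicate 2. All genes called in these 12 fits ran from 104 to 275, against 173 in the main fit. In CD44+ cells 5 of the 9 were called without c-kit+ control replicate 3, where Relb, Nfkb2 and Nfkbib joined. Without CD44+ control replicate 1 it was 3, with Nfkbiz. With arrays weighted by their scatter around the group means it was 7. All genes called in CD44+ cells numbered 97, 76 and 1405 of 18193 in these fits, against 53 in the main fit.

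**Figure D2:**
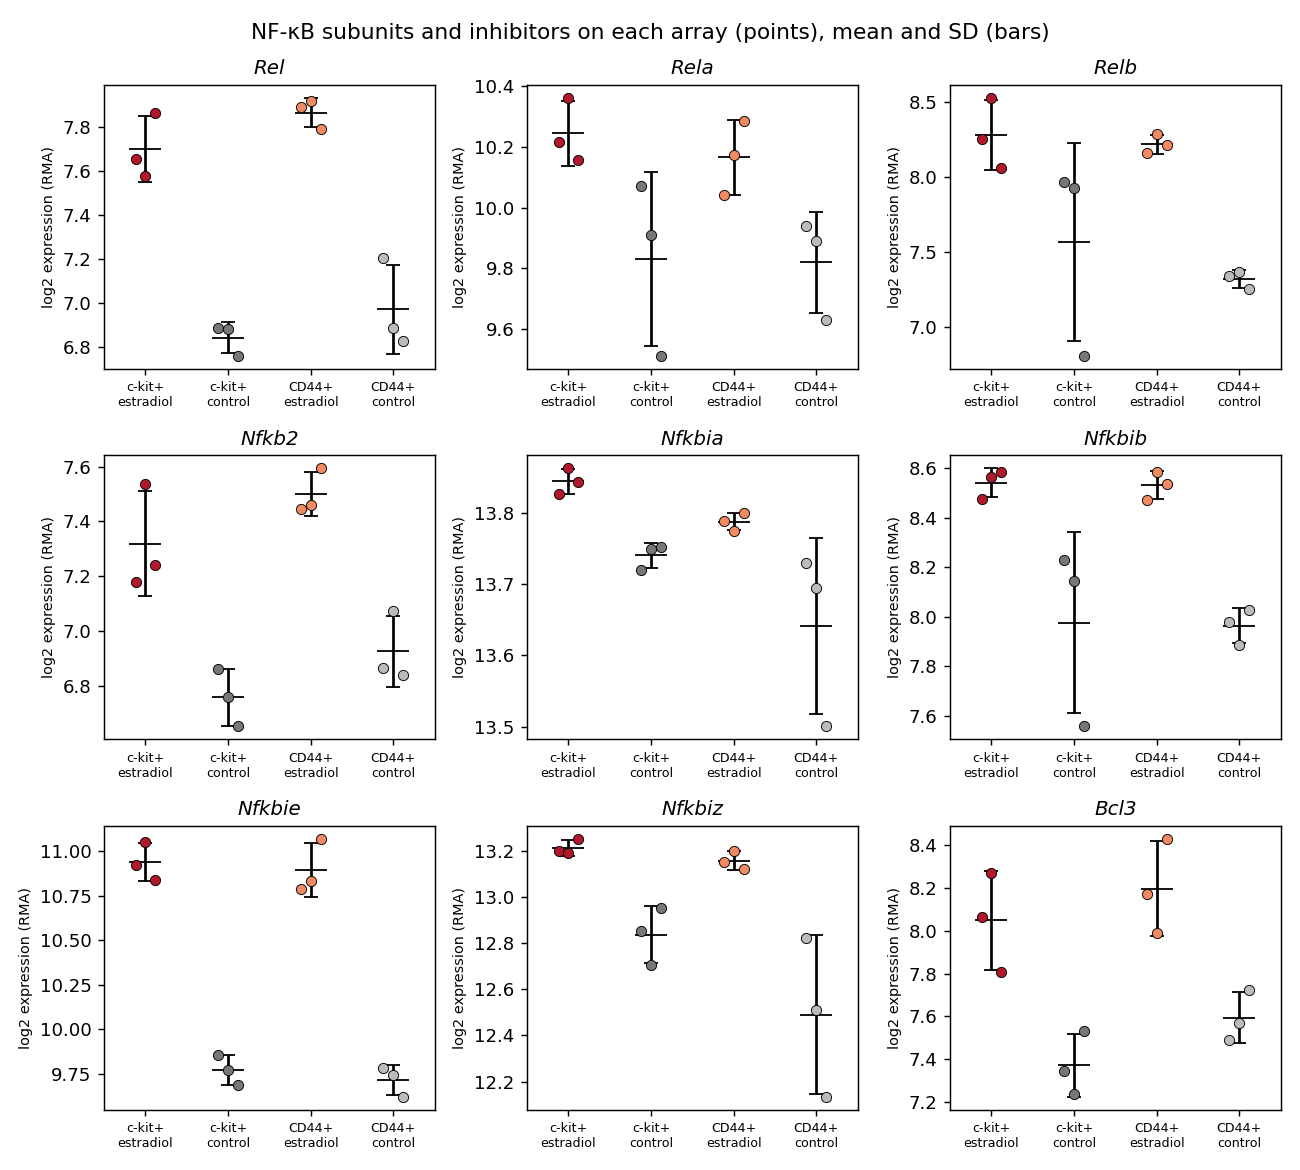
log2 expression (RMA, vertical axes, scaled for each gene) of the 9 genes on each array (points) in c-kit+ estradiol, c-kit+ control, CD44+ estradiol and CD44+ control cells; bars give the mean and SD of 3 arrays. In every panel the 3 estradiol points of a fraction lie above its 3 control points.

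Among the classical inhibitors, Nfkbie changed most. Nfkbie (Entrez 18037, chromosome 17) encodes IκBε, an inhibitor that retains dimers holding c-Rel or RelA. Its log2 values were 10.93, 11.05 and 10.84 on c-kit+ estradiol arrays, against 9.86, 9.77 and 9.69 on c-kit+ control arrays. CD44+ estradiol arrays gave 10.79, 10.83 and 11.07, against 9.78, 9.74 and 9.62 on CD44+ control arrays. In both fractions the gap between estradiol and control arrays was far wider than the spread within any group. The rise was 1.17 in c-kit+ cells (SE 0.11, 2.25-fold, adjusted p = 0.000887) and 1.19 in CD44+ cells (SE 0.11, 2.27-fold, adjusted p = 0.000669). In each fraction, and in the mean of both (1.18, SE 0.08, adjusted p = 1.47e-05), Nfkbie had the lowest p of all 18193 genes. A dimmer second probe set gave 1.16 in c-kit+ cells and 1.26 in CD44+ cells, so the size did not rest on the probe set chosen.

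Nfkbib, which encodes IκBβ, a slower inhibitor than IκBα, had 8.48, 8.56 and 8.59 on c-kit+ estradiol arrays, against 8.23, 8.14 and 7.56 on c-kit+ control arrays. The last of these, control replicate 3, is far below the other two. In CD44+ cells the estradiol arrays read 8.47, 8.59 and 8.54, against 7.98, 7.89 and 8.03 on the control arrays, with tight groups that do not overlap. The difference was 0.57 in c-kit+ cells (SE 0.15, adjusted p = 0.313) and 0.57 in CD44+ cells (SE 0.15, adjusted p = 0.232), neither of which passed. Without c-kit+ control replicate 3 the c-kit+ difference was 0.36 (adjusted p = 0.329). In the mean of both fractions Nfkbib rose by 0.57 (SE 0.10, 1.48-fold, adjusted p = 0.0183). That call was lost without c-kit+ estradiol replicates 2 or 3, CD44+ estradiol replicates 2 or 3 or CD44+ control replicate 2 (adjusted p up to 0.0666), after quantile normalization (adjusted p = 0.0502), and with the mean of its probe sets (0.31, adjusted p = 0.188), of which the second is dim at 4.37.

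Nfkbia encodes IκBα, the inhibitor that is destroyed first and remade fastest. Its brightest probe set read 13.83, 13.86 and 13.84 on c-kit+ estradiol arrays, against 13.72, 13.75 and 13.75 on c-kit+ control arrays. The values on CD44+ estradiol arrays were 13.79, 13.78 and 13.80, against 13.73, 13.69 and 13.50 on CD44+ control arrays. All these values sit near the top of the arrays' range, whose highest value was 14.81, and the groups are separated by small steps. The difference was 0.10 in c-kit+ cells (SE 0.09, adjusted p = 0.999), 0.15 in CD44+ cells (SE 0.09, adjusted p = 0.949) and 0.12 in the mean of both (95% interval -0.01 to 0.26, adjusted p = 0.793). It did not pass in any of them, and without CD44+ control replicate 3 the CD44+ difference was 0.075.

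The other 4 probe sets of Nfkbia gave larger differences in the mean of both fractions, although the dimmest had 0.028 in CD44+ cells, against 0.15 on the brightest. When every probe set was tested by itself, the one with a mean of 12.41 had 0.59 in the mean of both fractions and passed (adjusted p = 0.028). On it the c-kit+ estradiol arrays read 12.71, 12.84 and 12.61, against 12.57, 11.99 and 12.25 on c-kit+ control arrays. The CD44+ estradiol arrays read 12.67, 12.74 and 12.64, against 12.27, 11.82 and 11.80 on CD44+ control arrays. The remaining 3 probe sets had 0.44, 0.27 and 0.18 and did not pass. The probe sets of this gene therefore disagree in size, from 0.12 on the brightest to 0.59. All 5 had positive differences in both fractions, but on the dimmest the c-kit+ difference of 0.33 rested on c-kit+ control replicate 3. That array read 8.44, against 9.43 and 9.50 on the other c-kit+ control arrays. The c-kit+ estradiol arrays read 9.36, 9.38 and 9.63 on this probe set.

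**Figure D3:**
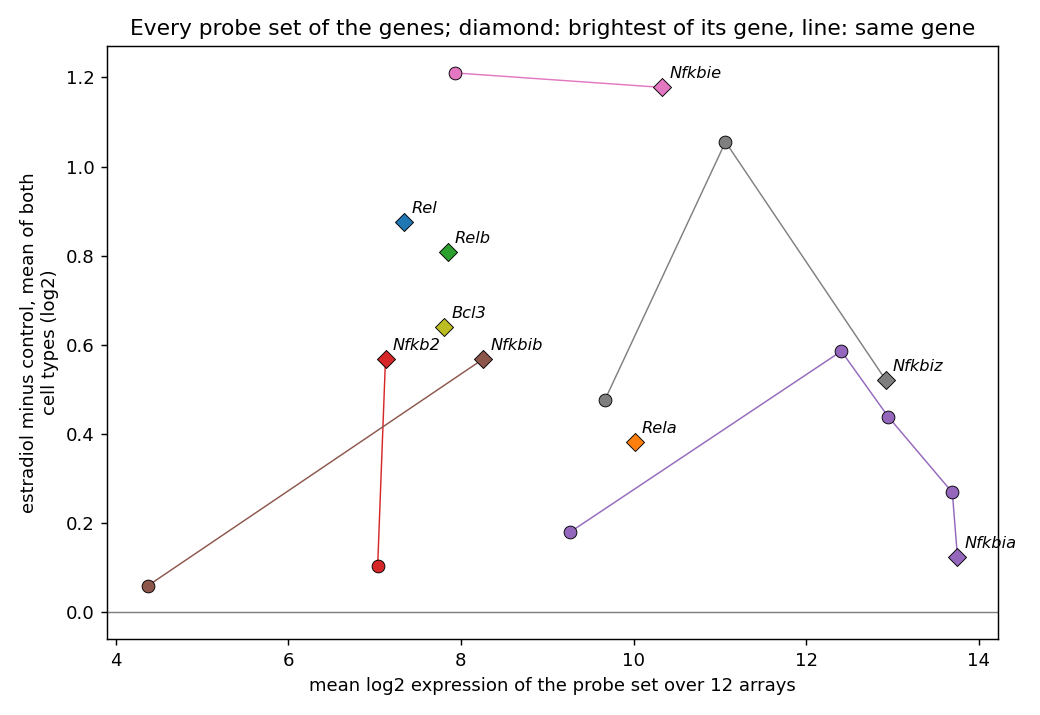
Estradiol minus control in the mean of both fractions (log2, vertical axis) against the mean log2 expression over 12 arrays (horizontal axis) for all 18 probe sets of the 9 genes; diamonds mark the brightest probe set of a gene and lines join probe sets of the same gene. All 18 lie above 0, and the brightest probe sets of Nfkbia, Nfkbiz and Nfkbie lie below at least 1 dimmer one of the same gene. For Nfkbie the step is small (1.18 against 1.21).

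The nuclear IκB proteins followed. Nfkbiz encodes IκBζ, which is needed for a subset of late NF-κB targets such as Il6 in macrophages. Its brightest probe set had 13.20, 13.19 and 13.25 on c-kit+ estradiol arrays, against 12.85, 12.71 and 12.95 on c-kit+ control arrays. For CD44+ cells the estradiol arrays had 13.15, 13.20 and 13.12, against 12.82, 12.51 and 12.13 on the control arrays, so the control arrays spread widely while the estradiol arrays lay close together. The difference was 0.37 in c-kit+ cells (SE 0.14, adjusted p = 0.921) and 0.67 in CD44+ cells (SE 0.14, adjusted p = 0.0985), and neither passed. In the mean of both Nfkbiz rose by 0.52 (SE 0.10, 1.43-fold, adjusted p = 0.0271), a call lost in 9 of the 12 fits without a single array (adjusted p up to 0.0883), all but those without c-kit+ control replicate 3 or CD44+ control replicates 1 or 3. A dimmer probe set, with a mean of 11.07, had 1.06 in the mean of both (adjusted p = 0.00478 over all probe sets), and the dimmest, with a mean of 9.66, had 0.48 (adjusted p = 0.691).

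Bcl3, first known as a gene at a leukaemia translocation, had 8.06, 8.27 and 7.81 on c-kit+ estradiol arrays, against 7.34, 7.24 and 7.53 on c-kit+ control arrays. CD44+ estradiol arrays read 8.17, 7.99 and 8.43, against 7.49, 7.57 and 7.72 on CD44+ control arrays. The spread among estradiol arrays was wider than for the inhibitors above. The difference was 0.68 in c-kit+ cells (SE 0.14, adjusted p = 0.12) and 0.60 in CD44+ cells (SE 0.14, adjusted p = 0.159), neither of which passed. In the mean of both Bcl3 rose by 0.64 (SE 0.10, 1.56-fold, adjusted p = 0.00692).

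Of the subunits, Rel showed the clearest rise. It encodes c-Rel, a subunit of lymphoid and myeloid cells that is required for Il12b in macrophages. Its values were 7.65, 7.58 and 7.87 on c-kit+ estradiol arrays, against 6.89, 6.88 and 6.76 on c-kit+ control arrays. On CD44+ estradiol arrays it had 7.89, 7.92 and 7.79, against 7.20, 6.89 and 6.83 on CD44+ control arrays. The rise was 0.86 in c-kit+ cells (SE 0.12, 1.81-fold, adjusted p = 0.00771), 0.89 in CD44+ cells (SE 0.12, 1.86-fold, adjusted p = 0.00433) and 0.88 in the mean (SE 0.08, adjusted p = 0.000135). With the 6 c-kit+ arrays alone Rel lost its call there (adjusted p = 0.0999).

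Rela encodes the subunit p65, the main activating partner of the classical arm, and its difference was among the smallest. It had 10.22, 10.36 and 10.16 on c-kit+ estradiol arrays, against 10.07, 9.91 and 9.51 on c-kit+ control arrays. In CD44+ cells it had 10.04, 10.17 and 10.29 on estradiol arrays, against 9.94, 9.89 and 9.63 on control arrays. The groups did not overlap but came close, and control replicate 3 was the lowest in both fractions. The difference was 0.42 in c-kit+ cells (SE 0.14, adjusted p = 0.736), 0.35 in CD44+ cells (SE 0.14, adjusted p = 0.853) and 0.38 in the mean (95% interval 0.16 to 0.60, adjusted p = 0.151), and none passed. Without c-kit+ control replicate 3 the c-kit+ difference was 0.26 (adjusted p = 0.82). With arrays weighted by their scatter around the group means Rela passed in the mean (0.31, adjusted p = 0.0434). In that fit 523 of all genes were called, against 173 in the main fit.

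The subunits of the alternative arm came next. Relb had 8.25, 8.53 and 8.06 on c-kit+ estradiol arrays, against 7.97, 7.93 and 6.80 on c-kit+ control arrays. Control replicate 3 lies far below the other control arrays, which come close to the lowest estradiol array. In CD44+ cells Relb had 8.16, 8.29 and 8.21 on estradiol arrays, against 7.34, 7.36 and 7.25 on control arrays, with narrow groups far apart. The difference was 0.72 in c-kit+ cells (SE 0.24, adjusted p = 0.696) and 0.90 in CD44+ cells (SE 0.24, adjusted p = 0.276). Neither passed, although in CD44+ cells Relb passed with the 6 CD44+ arrays alone (adjusted p = 0.00875) and without c-kit+ control replicate 3 (adjusted p = 0.00215). It also passed there with the replicate number as a block (adjusted p = 0.0356). The CD44+ arrays met the pairing criterion given below, but the c-kit+ arrays in the same fit did not. Without c-kit+ control replicate 3 the c-kit+ difference was 0.33 (adjusted p = 0.633).

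In the mean of both fractions Relb rose by 0.81 (SE 0.17, 1.75-fold, adjusted p = 0.0428). Leaving out single arrays ended that call in 9 of 12 fits (adjusted p up to 0.15), all but those without a c-kit+ control array. It also ended with every probe set tested (adjusted p = 0.0557), quantile normalization (adjusted p = 0.0621) or median centring (adjusted p = 0.0652). Nfkb2, which encodes p100, the precursor of p52 and itself an inhibitor, had 7.18, 7.54 and 7.24 on c-kit+ estradiol arrays, against 6.86, 6.76 and 6.65 on c-kit+ control arrays. Its CD44+ estradiol arrays read 7.45, 7.46 and 7.59, against 6.86, 7.07 and 6.84 on the CD44+ control arrays. The difference was 0.56 in c-kit+ cells (SE 0.12, adjusted p = 0.114) and 0.57 in CD44+ cells (SE 0.12, adjusted p = 0.0766), so neither passed, and in the mean Nfkb2 rose by 0.57 (SE 0.08, 1.48-fold, adjusted p = 0.00356). A second probe set of Nfkb2 at almost the same brightness (mean 7.03) had 0.10 (adjusted p = 0.943 over all probe sets). On c-kit+ control arrays this second probe set read 6.93, 6.97 and 6.78, above the first on each. On CD44+ control arrays it read 7.05, 6.99 and 7.18, above the first on replicates 1 and 3. The first was therefore the brightest through its estradiol arrays, and the size of the rise depended on the probe set.

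**Figure D4:**
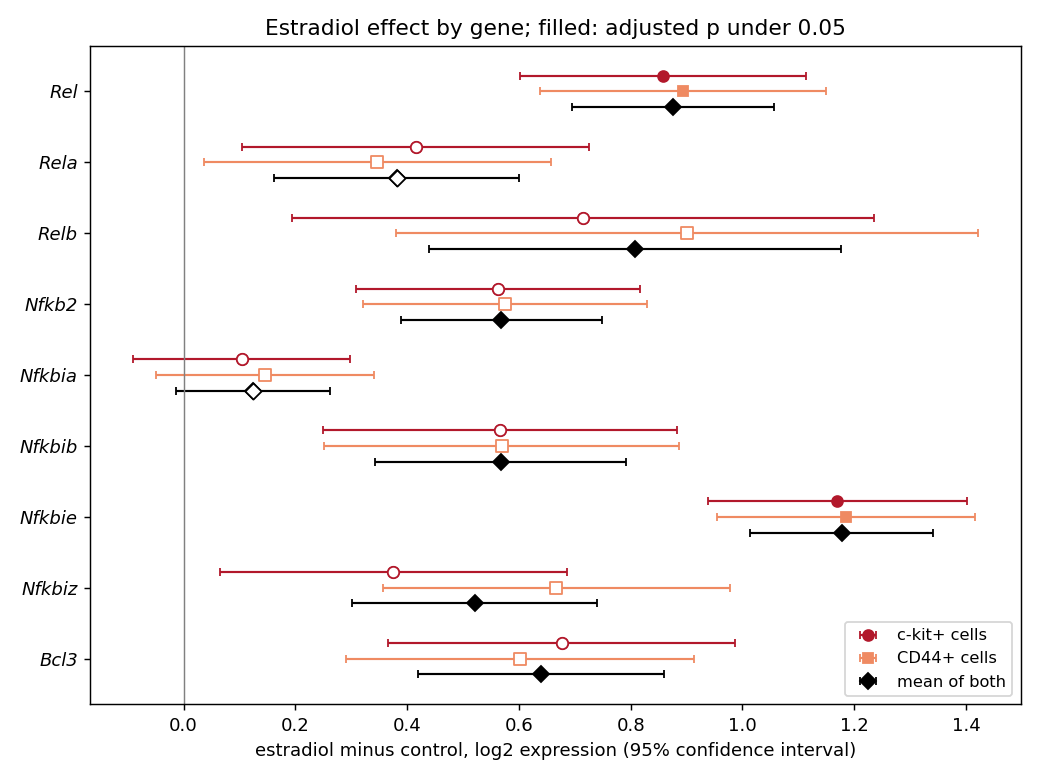
Estradiol minus control in log2 expression (horizontal axis) for each of the 9 genes, with 95% confidence intervals from limma, in c-kit+ cells (circles), CD44+ cells (squares) and the mean of both (diamonds); filled symbols passed at an adjusted p of 0.05. Nfkbie (1.17 and 1.19) and Rel (0.86 and 0.89) are filled in each fraction, and Rela and Nfkbia in none.

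Counted over probe sets, 13 of the 18 probe sets of these genes had all estradiol arrays above all control arrays in both fractions, beside 1.25% of all 34945 probe sets that name a single gene. The other 5 belonged to Nfkb2, Nfkbia (2 of 5), Nfkbib and Nfkbiz. The 13 include the brightest probe set of each gene, already counted above. Probe sets of the same gene are repeated readings of it on the same arrays, not further genes.

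Whether the estradiol effect differed between the fractions was tested as the c-kit+ effect minus the CD44+ effect. None of the 9 genes passed and none had an unadjusted p under 0.05. Over all genes 0% were called by limma, and 296 of 18193 (1.63%) had an unadjusted p under 0.05. The differences ran from -0.29 for Nfkbiz (95% interval -0.73 to 0.15) to 0.074 for Bcl3 (-0.37 to 0.51). The value for Nfkbiz ran from -0.46 without CD44+ control replicate 1 to -0.11 without CD44+ control replicate 3, and the gene's dimmer probe sets had -0.0047 and -0.057. For Nfkbie it was -0.016 (95% interval -0.34 to 0.31) and for Rel -0.036 (-0.40 to 0.33), so differences of either sign up to these bounds lie within the intervals. The widest interval belonged to Relb (-0.92 to 0.55).

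Levels of the 9 genes were also compared between the fractions, as c-kit+ minus CD44+. In control cultures none passed, where 2.3% of all genes were called and 0.539% as higher in c-kit+ cells. None had groups that do not overlap, where 7.41% of all genes lay higher and 8.33% lower in this sense. The differences ran from -0.22 for Bcl3 (SE 0.14, adjusted p = 0.55) to 0.35 for Nfkbiz (SE 0.14, adjusted p = 0.3), which was the single gene of the 9 with an unadjusted p under 0.05, beside 13.6% of all genes. That value was 0.17 without CD44+ control replicate 3, and the gene's dimmer probe sets had -0.028 and 0.54. Relb had 0.25 (adjusted p = 0.732), and 0.63 without c-kit+ control replicate 3, a fit in which it passed (adjusted p = 0.0198). In estradiol cultures none of the 9 passed or had an unadjusted p under 0.05, where 2.65% of all genes were called (0.324% as higher in c-kit+ cells) and 9.77% had such a p. The differences ran from -0.18 for Nfkb2 to 0.079 for Rela. For Nfkbia all c-kit+ estradiol arrays lay above all CD44+ estradiol arrays, by 0.057 in the means (95% interval -0.14 to 0.25), a separation upward that 10% of all genes showed, where 8.15% were separated downward. In the order of the 4 group means the estradiol groups came above both control groups for all 9 genes, and no difference between groups of the same culture condition passed.

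Other genes of the pathway were followed by role in the mean of both fractions, where 0.863% of all genes rose. These lists were written with earlier results of these data known. Among the 9 measured ligands that activate NF-κB 3 rose, Il1b (log2 difference 1.23, adjusted p = 0.000127), Il1a (1.06, adjusted p = 0.000372) and Tnf (0.66, adjusted p = 0.0052), the cytokines interleukin 1 and tumour necrosis factor. The fourth by p, Il18, had 0.17 (adjusted p = 0.973). Of 14 receptors 2 rose, Cd40 (1.41, adjusted p = 4.52e-05), a receptor of the TNF receptor family that also drives the alternative arm, and Tlr2 (0.72, adjusted p = 0.000862), a receptor for bacterial lipoproteins. Tnfrsf1b had 0.59 (adjusted p = 0.486) and Tlr1 0.27 (adjusted p = 0.493), which did not pass. None of the 13 measured kinases between receptor and IκB passed. Their lowest p-values belonged to Map3k8 (0.51, adjusted p = 0.272), whose protein is held by p105, Irak2 (0.51, adjusted p = 0.324), Ikbke (0.47, adjusted p = 0.473) and Ikbkb (0.15, adjusted p = 0.865), the catalytic subunit IKKβ.

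Of 11 genes for IκB-like and related proteins 3 rose. They were Tnip1 (0.71, adjusted p = 0.00366), which encodes a partner of A20, Tnfaip3 (0.62, adjusted p = 0.00821), which encodes the ubiquitin-editing inhibitor A20, and Nfkbid (0.66, adjusted p = 0.0131), which encodes the nuclear IκB protein IκBNS. Nfkbil1 had 0.16 (adjusted p = 0.812). Of 35 measured textbook NF-κB targets 19 rose, none fell and 16 did not pass. Examples are Il12b (2.34, adjusted p = 1.47e-05), Cxcl10 (1.57, adjusted p = 1.47e-05) and Icam1 (0.91, adjusted p = 4.52e-05), the adhesion molecule that binds leukocyte integrins. Il1a, Il1b, Tnf, Cd40 and Tnfaip3 stand in the target list as well as in another. The median of the targets was 0.73, that of the ligands 0.10, the receptors 0.025, the kinases 0.080 and the IκB-like genes 0.032, beside 0.015 for all genes. In c-kit+ cells 11 of the 35 targets rose, where 0.176% of all genes did, and in CD44+ cells 11 did, where 0.28% of all genes did.

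**Figure D5:**
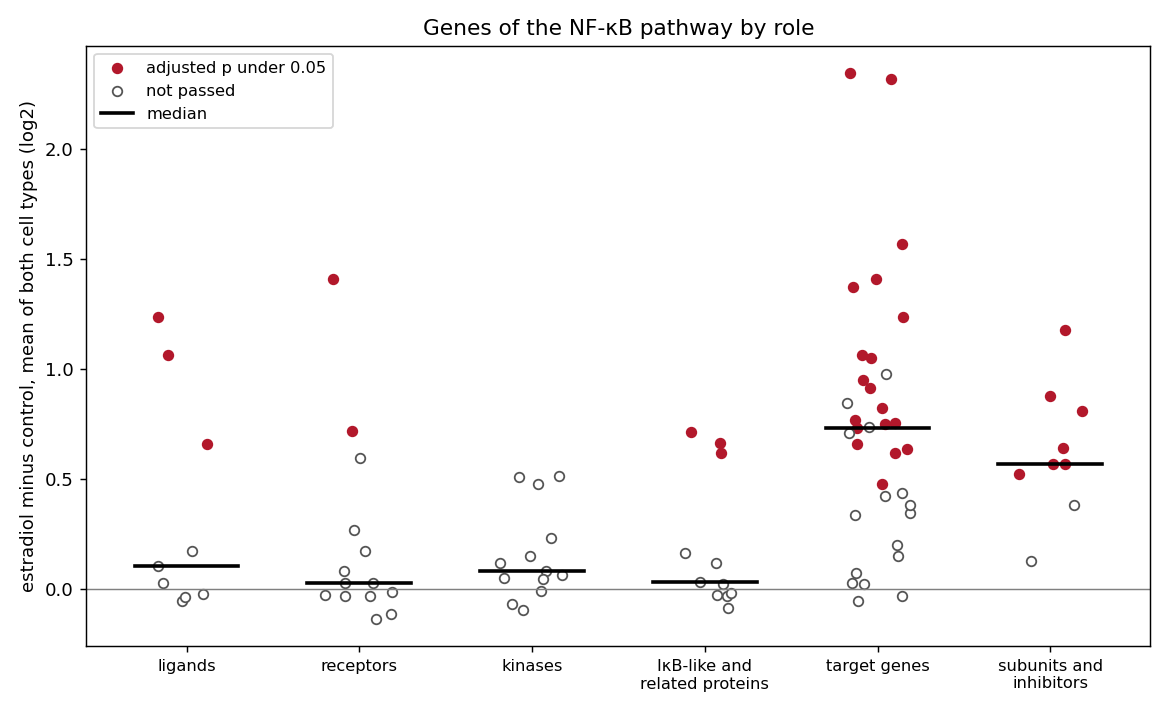
Estradiol minus control in the mean of both fractions (log2, vertical axis) for genes of 5 pathway lists and for the 9 subunit and inhibitor genes; each point is a gene, red points passed at an adjusted p of 0.05 and black bars are medians. The target genes (median 0.73) and the subunits and inhibitors (median 0.57) lie higher than the kinases (median 0.080), of which none passed.

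For each gene that rose, the genes with the most similar profile were found as those with the smallest mean absolute difference over the 12 arrays, after each gene's own mean was taken off. For Nfkbie these were Cd69 (0.134), Il1b (0.140) and Nupr1 (0.145), where the median over all genes was 0.585. For Rel they were Icam1 (0.123), Pvr (0.129) and Cdc42ep4 (0.135), where the median was 0.439. Relb was closest to Pnrc1, Helz2 and Nod1 (0.135 to 0.179), and Nfkb2 to Klf7, Icosl and Slco3a1 (0.0827 to 0.120). Nfkbib was closest to Cd200, Arid5a and Snx18 (0.114 at most), Nfkbiz to Ccng2, Dyrk2 and Cxcl1 (0.0591 to 0.0707), and Bcl3 to Gpr132, Icosl and Zc3h12a (0.132 to 0.134). The medians over all genes were 0.443 for Relb, 0.306 for Nfkb2, 0.303 for Nfkbib, 0.291 for Nfkbiz and 0.351 for Bcl3. Each lay near the gene's own mean absolute deviation, which was 0.589 for Nfkbie and 0.265 for Nfkbiz. Genes that vary less thus have smaller distances, and the distances do not rank the genes. These likenesses describe the 12 arrays, whose culture conditions the genes share.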

How the data were processed

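Gene expression was measured on 12 Affymetrix mouse arrays, 3 in each of 4 groups. The authors deposited log2 expression per probe set, and RMA is the tool that the submitters' processing notes name, with no version there. Values ran from 2.47 to 14.81, with array medians of 4.75 to 4.84. Precision is limited by the number of arrays.

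Gene names are those of the platform's annotation, which gave a single gene to 34945 of 45101 probe sets, several genes to 932 and none to 9160, the other 64 being controls. A gene was its brightest probe set over 12 arrays (18193 genes). Values entered as deposited, without a filter. limma 3.58.1 (R 4.3.3) was fitted with 1 mean per group over all 12 arrays, with empirical Bayes moderation, p-values adjusted by Benjamini-Hochberg across the 18193 genes and called at 0.05. There were 6 comparisons. Standard errors and 95% intervals are those of this fit. The script was tested on simulated data. Figures were drawn with Python 3.11.15 and matplotlib 3.10.9.

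The 10 genes and the pathway and marker lists were chosen with earlier results of these data known. The text names all 9 measured subunit and inhibitor genes, up to 4 genes of smallest p from each pathway list, the 3 nearest profiles of each gene that rose, and Kit and Cd44. Of the pathway lists, Chuk, Ripk1, Irak4 and Bcl2a1a were not analysed here.

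Pairing by replicate number was examined through correlations of deviations from the group means. Equal numbers correlated at 0.303, 0.368 and 0.322 between CD44+ estradiol and control arrays, over the 0.1 asked for, and at 0.447, 0.192 and 0.312 between c-kit+ and CD44+ estradiol arrays. c-kit+ estradiol and control arrays (0.345, 0.0916 and 0.253) and the control arrays of the fractions (0.175, 0.122 and -0.208) did not meet this. The alternatives changed the probe sets (their mean per gene, or each tested alone), the filter (genes no dimmer than the median), the scaling (quantile or median), the moderation (robust, with a trend), the weights of arrays, the block (replicate number) or the arrays fitted (only those compared, or all but 1). The Gapdh 3' minus 5' measure as a covariate was added after seeing the data.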

Additional observations from a re-analysis of the deposited data

How the results depend on the processing

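Over 585 recomputed estradiol differences of the 9 genes (3 comparisons, up to 22 alternatives each) 543 kept their side of the threshold, 29 lost a call and 13 gained it. All were positive, but in both fractions every estradiol array lay above every control array for these genes. Leaving out, weighting or blocking arrays therefore could not reverse a sign. Only the scaling, the mean of probe sets and the covariate could have done so. Rel and Nfkbie were called in CD44+ cells under all alternatives, and Nfkbie in c-kit+ cells as well (adjusted p up to 0.0498). In the mean of both, Nfkbie, Rel, Nfkb2 and Bcl3 were called under all alternatives. The second probe set of Nfkb2, taken by itself, had 0.10 in this mean and did not pass. Genes of the 9 called in c-kit+ cells numbered 1 with only the arrays compared, 3 with array weights (Bcl3 gained, adjusted p = 0.0412) and 2 in each fit without an array; in CD44+ cells 7 with array weights and 2 to 5 without single arrays; in the mean of both 8 with array weights (Rela gained, adjusted p = 0.0434) and 4 to 7 without single arrays; in control cultures between the fractions 0 to 1. With the replicate block the number was 3 in CD44+ cells, where Relb gained its call, 2 in c-kit+ cells and 7 in the mean, and no other member's call changed.

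All genes called in c-kit+ cells numbered 55 with array weights, 70 with the replicate block, 2 with the arrays compared alone and 10 to 45 without single arrays (33 as reported). In CD44+ cells they were 1405, 114 and, without single arrays, 22 to 97 (53 as reported; array weights and block). In the mean they were 523 with array weights, 275 with every probe set, 280 with the block and 104 to 275 without single arrays (173 as reported). Between the fractions in control cultures they were 1058 with array weights, 693 with the block, 196 with the arrays compared alone, 254 with the Gapdh covariate and 221 to 456 without single arrays (418 as reported). In estradiol cultures they were 779 with array weights, 250 among genes at or above the median level and 269 to 594 without single arrays (483 as reported). The cause of these moves was not tested.

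Signs reversed only for values that did not pass, in comparisons that involve both fractions. In control cultures c-kit+ minus CD44+ became, with quantile normalization, -0.033 for Nfkbia, -0.068 for Nfkbib, -0.077 for Nfkbie and -0.12 for Rela, and with the Gapdh covariate -0.0020 for Nfkbib and -0.11 for Rela; without single arrays it ran from -0.11 to 0.22 for Nfkbib and from -0.11 to 0.17 for Rela. In estradiol cultures it became, with the covariate, -0.0031 for Nfkbib, -0.054 for Nfkbiz, -0.032 for Rela and -0.12 for Relb, and with the mean of probe sets -0.040 for Nfkbie; without single arrays it ran from -0.018 to 0.044 for Nfkbib, from -0.014 to 0.13 for Nfkbie and from -0.061 to 0.17 for Relb. The difference of effects became, with quantile normalization, 0.051 for Nfkb2, 0.077 for Nfkbia, 0.072 for Nfkbib, 0.11 for Nfkbie and 0.0091 for Rel, with array weights 0.12 for Nfkb2, 0.015 for Nfkbia and 0.0068 for Nfkbie, and with the mean of probe sets 0.049 for Nfkb2. Without single arrays it ran from -0.038 to 0.19 for Bcl3, -0.12 to 0.058 for Nfkb2, -0.086 to 0.028 for Nfkbia, -0.21 to 0.12 for Nfkbib, -0.072 to 0.071 for Nfkbie, -0.15 to 0.036 for Rel, -0.091 to 0.19 for Rela and -0.57 to 0.014 for Relb.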
